A study of Mus musculus with 54 samples.

Results

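Control cultures of 3T3-L1, a mouse fibroblast-like line of preadipocytes able to mature into fat cells in a dish, were compared between 96 and 144 h and 36 and 48 h. The comparison used 8 of the 54 arrays of a time course, picked by title: untreated control and DMSO treated cells at 96 and 144 h (4 arrays), against the same arms at 36 and 48 h (4 arrays). Untreated control cells were described as undergoing normal differentiation, and DMSO cells received 0.5% DMSO, the vehicle. Another arm, with 2 µM prieurianin, a plant limonoid, was sampled at the same times and is used here for comparison only. Each arm had 1 array at each of 18 times from 0 to 288 h. Neither the differentiation stimulus nor its timing relative to the DMSO is stated in the labels, and no label says whether each time came from a separate culture. The p-values therefore measure the spread between neighbouring times and between the changes of the arms, which may be partly technical. A constant difference between the arms is taken out by the fit.

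Preadipocytes of this line are usually triggered by a hormone mix, divide again for a short time and then leave the cell cycle. C/EBPβ is induced early and acts upstream of PPARγ and C/EBPα, the factors that switch on the genes for storing and mobilising triglyceride. Mature fat cells take up fatty acids and glucose, build triglyceride on a glycerol backbone, coat the droplets with perilipins and CIDE proteins, and secrete hormones such as adiponectin.

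Amplified RNA carrying Cy5 was read on mouse oligonucleotide arrays with 1 colour, and precision is limited by how many arrays there were. Levels are log2 of the quantile-normalised intensity plus 16, a scale that understates changes of dim genes and that does not compare levels between genes. Deposited median intensities of the 8 arrays ran from 88 to 144, and those of all 54 from 88 to 313. The DMSO 144 h array, at 88, thus had the lowest median of the series. Pairs of arrays correlated at 0.978 to 0.987 within 96-144 h, at 0.970 to 0.984 within 36-48 h and at 0.940 to 0.977 between the windows, over the genes tested. Of the 12792 genes tested, 73 had a probe saturated on at least 1 of the 8 arrays and 27 on all of them. Array values of a gene are written in the order untreated 96 h, untreated 144 h, DMSO 96 h and DMSO 144 h, and then untreated 36 h, untreated 48 h, DMSO 36 h and DMSO 48 h. Values after ± are standard errors from the fit (n = 4 arrays against 4, with arm as a block), and a gene is called at a limma Benjamini-Hochberg adjusted p under 0.05. Fits of all 36 control arrays and of all 54 arrays, which take the spread from the other times too, are named where they change a call. In such bulk RNA, more cells of a type and more RNA per cell cannot be told apart.

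Control cells at 96-144 h carried far more RNA for fat storage and fat cell secretion than at 36-48 h, and less for many genes of mitosis, inflammation and the actin cytoskeleton. Of 12792 genes, 1124 were called higher (8.79%) and 1164 lower (9.1%), which together is 17.9%. The list counts below are to be read beside these shares. The higher counts of the glycolysis and hypoxia, ER stress, Wnt and fibrillar matrix lists were near 8.79%, so they are no result about those lists. With median centring in place of quantile normalisation, 1401 were higher and 738 lower, so that rises made up 65.5% of the calls, against 49.1% here. The largest changes lay mostly on one side, since 89 called genes were higher by over 4-fold and 28 lower, and 28 were higher by over 8-fold and 1 lower. All 2288 called genes changed in the same direction in both arms. The call itself favours this, since opposite changes would add to its spread, so it is no separate support. The 4 arrays of each window did not overlap at 1398 genes that were higher (10.9%) and 1539 that were lower (12%). The call counts leaned on the latest arrays: without the untreated 144 h array 543 genes were higher and 508 lower, and without the DMSO 144 h array 665 and 664. Without the DMSO 48 h array 742 were higher and 815 lower.

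**Figure D1:**
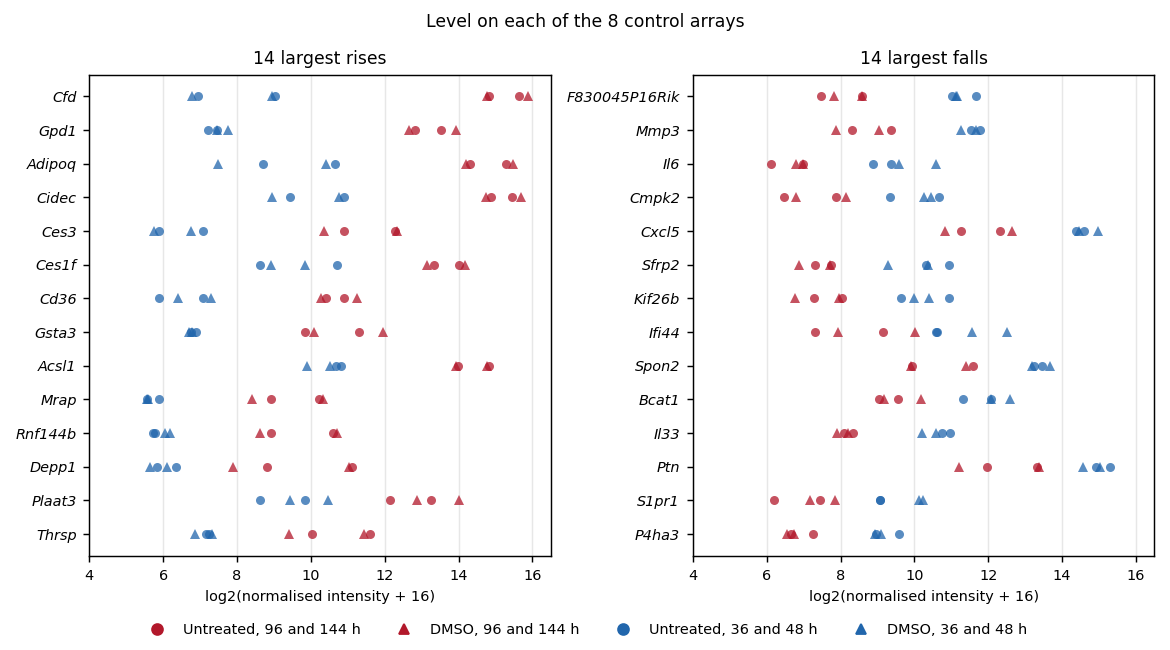
Level of the 14 genes with the largest rises (left) and the 14 with the largest falls (right) on each control array, as log2(normalised intensity + 16); red marks 96-144 h, blue 36-48 h, circles untreated and triangles DMSO cells. For each of the 28 genes, selected so, the red and blue marks do not overlap.

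Secreted fat cell proteins held the largest rise. Cfd, which encodes adipsin, a serine protease of the alternative complement pathway, had levels of 14.83, 15.64, 14.77 and 15.87 at 96-144 h, against 6.93, 9.03, 6.79 and 8.96 at 36-48 h. The difference was 7.35 ± 0.57 (163-fold, adjusted p = 0.00028), the largest of any named gene. Adipoq, the gene of the hormone adiponectin, had levels of 14.31, 15.29, 14.20 and 15.47 at 96-144 h, against 8.71, 10.65, 7.47 and 10.40 at 36-48 h. It rose by 5.51 ± 0.67 (45.6-fold, adjusted p = 0.0015). Within 36-48 h both genes were higher on the 48 h arrays than on the 36 h arrays of either arm. Their windows did not overlap, which was a condition for the 14 largest rises and the 14 largest falls. Agt, the angiotensin precursor, had levels of 15.36, 15.78, 15.26 and 15.90 at 96-144 h, against 11.52, 13.09, 11.66 and 12.91 at 36-48 h, a difference of 3.28 ± 0.38 (9.7-fold, adjusted p = 0.0012). Sparcl1, a matricellular protein, rose by 1.94 ± 0.17 (3.84-fold, adjusted p = 0.00042). Of the list of adipokines and other secreted fat cell proteins, 7 of 10 tested members (15 listed) were called higher and 0 lower, with a median change of 1.39, against a median of -0.03 over all genes tested. Lpl, the lipase that frees fatty acids from lipoproteins, was saturated on all 4 arrays at 96-144 h and on none at 36-48 h. Its levels averaged 15.99 at 96-144 h and 14.85 at 36-48 h, so it was at least 2.2-fold higher (adjusted p = 0.0034). Lep, the leptin gene, was too dim to be tested.

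Most tested transcription factors of the programme rose. Pparg had levels of 13.72, 14.15, 13.43 and 14.10 at 96-144 h, against 11.69, 12.13, 11.40 and 11.99 at 36-48 h, a difference of 2.05 ± 0.21 (4.14-fold, adjusted p = 0.0007). Cebpa had levels of 10.41, 11.20, 9.93 and 10.75 at 96-144 h, against 8.27, 8.45, 8.33 and 8.94 at 36-48 h, a difference of 2.08 ± 0.27 (4.21-fold, adjusted p = 0.0021). The windows did not overlap for either gene. Cebpb, the early factor, stood at 15.03, 15.24, 15.02 and 14.82 at 96-144 h, against 15.32, 15.24, 14.86 and 15.00 at 36-48 h. These levels overlapped, and the difference of -0.08 ± 0.12, adjusted p = 0.71 was not called; it was 0.038 with median centring. Ppargc1b, a coactivator of mitochondrial and fatty acid genes, rose by 2.53 ± 0.26 (5.76-fold, adjusted p = 0.00069), and Rxra, the partner of PPARγ on DNA, by 1.43 ± 0.30 (2.7-fold, adjusted p = 0.014). Of the adipogenic transcription factors, 9 of 14 tested members (19 listed) were called higher and 0 lower, with a median change of 1.02.

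Some genes for taking up and binding fatty acids rose. Cd36, a fatty acid transporter of the plasma membrane, had levels of 10.40, 10.89, 10.28 and 11.24 at 96-144 h, against 5.89, 7.08, 6.39 and 7.30 at 36-48 h. It rose by 4.03 ± 0.33 (16.4-fold, adjusted p = 0.00035). Acsl1, the acyl-CoA synthetase that activates fatty acids in fat cells, had levels of 13.98, 14.82, 13.94 and 14.78 at 96-144 h, against 10.69, 10.80, 9.90 and 10.53 at 36-48 h, a difference of 3.90 ± 0.26 (14.9-fold, adjusted p = 0.00021). At 36 h Acsl1 was higher in untreated cells and Cd36 in DMSO cells. The windows overlapped for neither gene, as both were selected so. The cytosolic carriers Fabp5 and Fabp4 rose by 3.41 ± 0.34 (10.7-fold, adjusted p = 0.00063) and 2.34 ± 0.33 (5.06-fold, adjusted p = 0.0027). Fabp4 was higher in DMSO than in untreated cells at each of the 4 times, with 12.71, 13.27, 13.92 and 14.01 at 96-144 h, against 9.55, 10.76, 11.71 and 12.53 at 36-48 h. Of the list for fatty acid uptake and binding, 6 of 14 tested members (14 listed) were called higher and 0 lower, with a median change of 0.20. The other called members, named after their values were seen, were Slc27a1, a fatty acid transport protein (0.89 ± 0.21, adjusted p = 0.021), and Dbi, the acyl-CoA binding protein (0.76 ± 0.13, adjusted p = 0.0065).

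Genes at several steps of triglyceride assembly rose. Gpd1, the cytosolic glycerol-3-phosphate dehydrogenase that supplies the glycerol backbone, had levels of 12.81, 13.53, 12.65 and 13.92 at 96-144 h, against 7.21, 7.45, 7.45 and 7.75 at 36-48 h. It rose by 5.76 ± 0.28 (54.2-fold, adjusted p = 4.6e-05). Its level changed little between 36 and 48 h, and the windows lay several log2 units apart in both arms. The acyltransferases that follow also rose, Gpat3 by 3.14 ± 0.17 (8.82-fold, adjusted p = 8.4e-05) and Agpat2 by 2.92 ± 0.19 (7.57-fold, adjusted p = 0.00021). Lpin1, the phosphatidate phosphatase, rose by 2.84 ± 0.28 (7.14-fold, adjusted p = 0.00063) and Dgat2, which adds the last acyl chain, by 1.75 ± 0.26 (3.35-fold, adjusted p = 0.0033). Of the list for glycerol and triglyceride synthesis, 7 of 12 tested members (14 listed) were called higher and 0 lower, with a median change of 1.25.

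De novo fatty acid synthesis genes rose in part. Thrsp, the lipogenic Spot 14 protein, had levels of 10.03, 11.59, 9.40 and 11.45 at 96-144 h, against 7.24, 7.16, 6.86 and 7.32 at 36-48 h, a difference of 3.47 ± 0.45 (11.1-fold, adjusted p = 0.0021). Scd1, the stearoyl-CoA desaturase, was saturated on 2 of the 4 arrays at 96-144 h, both at 144 h, and on none at 36-48 h. Its measured difference was 2.78 ± 0.19 (6.88-fold, adjusted p = 0.00021). Fasn, the fatty acid synthase, rose by 1.39 ± 0.29 (2.62-fold, adjusted p = 0.014), with levels of 13.77, 14.22, 13.70 and 14.48 at 96-144 h, against 13.10, 12.38, 13.12 and 11.99 at 36-48 h. The lowest array at 96-144 h and the highest at 36-48 h were less than 1 log2 unit apart for Fasn. Of the list, 5 of 14 tested members (16 listed) were called higher and 1 lower, with a median change of 0.56. Besides Thrsp, Scd1 and Fasn, the higher members were Scd2, another desaturase (0.71 ± 0.15, adjusted p = 0.014, and 0.057 without the untreated 144 h array) and saturated on 2 arrays at 96-144 h and none at 36-48 h, and Acacb, an acetyl-CoA carboxylase (0.62 ± 0.19, adjusted p = 0.049, named after its value was seen). The number of higher members was 8 with median centring and ran from 3 to 8 when single arrays were left out, lowest without the untreated 144 h array and highest without the DMSO 96 h array. The member called lower was Fads2, a fatty acid desaturase (named after its value was seen), at -0.68 ± 0.15, adjusted p = 0.018, and its call was lost with median centring and without either 144 h array.

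Most tested genes for droplet coats and lipases rose. Cidec, a droplet protein that promotes growth of large droplets, had levels of 14.89, 15.46, 14.74 and 15.69 at 96-144 h, against 9.43, 10.90, 8.94 and 10.75 at 36-48 h. It rose by 5.19 ± 0.45 (36.5-fold, adjusted p = 0.00038). Plin1, the perilipin of fat cells, had levels of 8.61, 9.89, 8.31 and 9.42 at 96-144 h, against 6.14, 6.21, 5.38 and 7.15 at 36-48 h, a difference of 2.84 ± 0.43 (7.16-fold, adjusted p = 0.0036). As with Adipoq, Cidec was higher at 48 than at 36 h in both arms. G0s2, an inhibitor of the triglyceride lipase, had levels of 10.93, 11.14, 10.51 and 10.81 at 96-144 h, against 7.40, 7.76, 7.38 and 7.36 at 36-48 h. It rose by 3.37 ± 0.14 (10.4-fold, adjusted p = 2.5e-05), with the smallest adjusted p of all genes. The lipases that act in sequence rose as well: Pnpla2, which starts triglyceride breakdown, by 2.07 ± 0.29 (4.19-fold, adjusted p = 0.0026), Lipe by 2.32 ± 0.24 (4.99-fold, adjusted p = 0.0007) and Mgll by 2.83 ± 0.20 (7.1-fold, adjusted p = 0.00021). Lipe had a second, dimmer probe whose difference was -0.06. Of the list of droplet coats and lipolysis, 11 of 17 tested members (19 listed) were called higher and 0 lower, with a median change of 1.15.

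Other genes among the 14 largest rises belong to esterases, detoxification and hormone reception. The carboxylesterases Ces3 and Ces1f rose by 5.09 ± 0.49 (34.2-fold, adjusted p = 0.00061) and 4.15 ± 0.45 (17.8-fold, adjusted p = 0.00095). Gsta3, a glutathione transferase, had levels of 9.85, 11.29, 10.09 and 11.95 at 96-144 h, against 6.74, 6.88, 6.78 and 6.70 at 36-48 h, a difference of 4.02 ± 0.42 (16.2-fold, adjusted p = 0.00076). Plaat3, a phospholipase of fat cells, rose by 3.48 ± 0.39 (11.1-fold, adjusted p = 0.0011). Rnf144b, a ubiquitin ligase, rose by 3.78 ± 0.47 (13.7-fold, adjusted p = 0.0017), and its second probe by 1.18. Depp1 rose by 3.73 ± 0.67 (13.3-fold, adjusted p = 0.007), with 8.82, 11.11, 7.90 and 11.03 at 96-144 h, against 5.84, 6.35, 5.64 and 6.11 at 36-48 h, so its 144 h arrays stood far above its 96 h arrays. Mc2r, the receptor for adrenocorticotropic hormone, and Mrap, the accessory protein that brings it to the cell surface, rose together. Mrap had levels of 8.92, 10.22, 8.42 and 10.32 at 96-144 h, against 5.89, 5.55, 5.55 and 5.59 at 36-48 h, a difference of 3.82 ± 0.40 (14.1-fold, adjusted p = 0.00081), and Mc2r a difference of 3.06 ± 0.25 (8.31-fold, adjusted p = 0.00036). Of the detoxification, NRF2 and glutathione list, 6 of 26 tested members (28 listed) were called higher and 2 lower, with a median change of 0.05; the lower ones, named after their values were seen, were the superoxide dismutases Sod3 (-1.16 ± 0.12, adjusted p = 0.00076) and Sod2 (-0.93 ± 0.12, adjusted p = 0.0023). Its rises included Ephx2, the soluble epoxide hydrolase (2.97 ± 0.33, adjusted p = 0.001), and Mgst3, a microsomal glutathione transferase (1.93 ± 0.21, adjusted p = 0.00092).

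Insulin and adrenergic response genes rose in part. Slc2a4, the insulin-responsive glucose transporter GLUT4, had levels of 8.70, 9.76, 8.61 and 9.80 at 96-144 h, against 6.65, 7.48, 7.55 and 8.07 at 36-48 h, a difference of 1.78 ± 0.36 (3.43-fold, adjusted p = 0.011). Trarg1, a regulator of GLUT4 trafficking, rose by 1.58 ± 0.25 (3.0-fold, adjusted p = 0.0039) and Prkar2b, a regulatory subunit of protein kinase A, by 1.03 ± 0.18 (2.04-fold, adjusted p = 0.0057). Of the list, 5 of 8 tested members (16 listed) were called higher and 0 lower, with a median change of 0.81; the fifth was Pik3r1, a regulatory subunit of phosphoinositide 3-kinase (0.58 ± 0.14, adjusted p = 0.022, named after its value was seen). In the glycolysis and hypoxia list, 2 of 21 tested members (23 listed) were called higher, near the 8.79% of all genes tested, and 0 lower, with a median change of 0.12. They were Egln3, an oxygen-sensing prolyl hydroxylase (1.0 ± 0.19, adjusted p = 0.0088), and Hk2, a hexokinase (0.89 ± 0.25, adjusted p = 0.04, a call lost without any of 5 of the 8 arrays, with adjusted p up to 0.12 without the untreated 144 h array, and in the fits of 36 and 54 arrays).

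Most tested genes for the breakdown of branched-chain amino acids rose. Bcat2, the mitochondrial aminotransferase of the first step, had levels of 13.77, 14.49, 13.34 and 14.25 at 96-144 h, against 11.43, 12.16, 11.79 and 12.24 at 36-48 h. It rose by 2.06 ± 0.28 (4.16-fold, adjusted p = 0.0024). Bcat1, its cytosolic counterpart and one of the 14 largest falls, had levels of 9.54, 9.04, 10.17 and 9.19 at 96-144 h, against 12.07, 11.32, 12.60 and 12.06 at 36-48 h. It fell by 2.53 ± 0.27 on the log2 scale (adjusted p = 0.00079). The isoenzymes moved in opposite directions. The arrays of the windows overlapped for neither, which for Bcat1 was a condition of its selection. Further steps rose through Bckdhb, a subunit of the branched-chain keto acid dehydrogenase (1.32 ± 0.20, adjusted p = 0.0036), Hibch (1.29 ± 0.20, adjusted p = 0.0038) and Aldh6a1 (2.07 ± 0.20, adjusted p = 0.00062), both of valine breakdown. Of the list, 14 of 20 tested members (21 listed) were called higher and 0 lower, with a median change of 0.79, and no tested member had a negative difference. The count ran from 9 to 15 when single arrays were left out, and was smaller by over 1.5 times without the untreated 48 h, untreated 144 h, DMSO 36 h or DMSO 144 h array.

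Pyruvate and TCA enzymes, fatty acid oxidation genes and respiratory chain genes rose in part. Pcx, the pyruvate carboxylase, rose by 2.10 ± 0.21 (4.29-fold, adjusted p = 0.00063), with levels of 13.70, 14.04, 13.12 and 13.62 at 96-144 h, against 11.20, 11.80, 11.73 and 11.35 at 36-48 h. Idh3a, a subunit of isocitrate dehydrogenase, rose by 1.99 ± 0.14 (3.98-fold, adjusted p = 0.00021), Pdhb, of pyruvate dehydrogenase, by 1.76 ± 0.19 (3.38-fold, adjusted p = 0.00099) and Mpc2, a subunit of the mitochondrial pyruvate carrier, by 1.28 ± 0.19 (2.44-fold, adjusted p = 0.0033). Of the pyruvate and TCA enzymes, 12 of 22 tested members (24 listed) were called higher and 0 lower, with a median change of 0.53. Of the fatty acid oxidation list, 11 of 22 tested members (25 listed) were called higher and 1 lower, with a median change of 0.49; the higher count was 5 without the untreated 144 h array. Its rises included the peroxisomal genes Pex11a (2.19 ± 0.20, adjusted p = 0.0005) and Cat, catalase (1.42 ± 0.17, adjusted p = 0.0015). The largest was Acaa1b (2.35), but its call was lost without any of 5 of the 8 arrays. On values as deposited the adjusted p of Acaa1b was 0.071. The only fall of this list was Cpt1a, which carries long-chain fatty acids towards mitochondrial oxidation, at -1.33 ± 0.25, adjusted p = 0.008. Cpt1a had levels of 10.22, 9.26, 10.86 and 10.20 at 96-144 h, against 11.19, 10.65, 12.07 and 11.93 at 36-48 h, and the windows overlapped, with DMSO cells higher than untreated cells at each of the 4 times. Of the respiratory chain and ATP synthase list, 6 of 33 tested members (40 listed) were called higher and 0 lower, with a median change of 0.27; the higher count was 10 in the fit of 36 arrays and ran from 1 to 8 when single arrays were left out, and was smaller by over 1.5 times without the untreated 144 h, DMSO 48 h or DMSO 144 h array. Uqcrfs1, the Rieske protein of complex III, had the largest difference there (1.10 ± 0.13, adjusted p = 0.0014). Uqcrc2, Ndufv1 and Cyc1 were also called higher, and each lost its call without the untreated 144 h array.

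Some cholesterol genes rose. Cyp51, the lanosterol demethylase, had levels of 12.44, 13.32, 12.32 and 13.70 at 96-144 h, against 9.79, 10.08, 10.01 and 9.97 at 36-48 h, a difference of 2.98 ± 0.30 (7.89-fold, adjusted p = 0.00064). Insig1, a feedback inhibitor of sterol synthesis, rose by 2.02 ± 0.18 (4.04-fold, adjusted p = 0.00049) and Dhcr7, of the last step, by 1.0 ± 0.13 (2.0-fold, adjusted p = 0.0018). Msmo1, a sterol oxidase, was also called (1.26 ± 0.38, adjusted p = 0.049, and a call lost without any of 6 of the 8 arrays, with adjusted p up to 0.15 without the untreated 144 h array), as was Nsdhl, a sterol dehydrogenase (0.49 ± 0.13, adjusted p = 0.028, named after its value was seen). Of the list for cholesterol synthesis and uptake, 5 of 15 tested members (22 listed) were called higher and 2 lower, with a median change of 0.19. Its higher count was 3 at the lowest when single arrays were left out, and it was smaller by over 1.5 times without the untreated 48 h, untreated 144 h, DMSO 48 h or DMSO 144 h array. Its members called lower, named after their values were seen, were Stard4, a sterol carrier (-0.92 ± 0.22, adjusted p = 0.02), and Sc5d, a sterol desaturase (-0.50 ± 0.12, adjusted p = 0.02). The lower count was not far above the 9.1% of all genes tested. That count was 1 with median centring, no arm block, arm as a random block or in the fits of 36 or 54 arrays, reached 0 at the lowest when single arrays were left out, and was smaller by over 1.5 times without the untreated 48 h, untreated 144 h, DMSO 36 h or DMSO 144 h array. Of the apolipoproteins and LXR targets, 3 of 8 tested members (8 listed) were called higher and 0 lower, with a median change of 0.74; 6 were called with median centring, 1 without the untreated 144 h array and 1 with a stricter filter on dim genes (a mean above the median). Apoe, the lipoprotein ligand, rose by 1.78 ± 0.31 (3.43-fold, adjusted p = 0.0064). The others were Abcg1, a cholesterol exporter (1.47 ± 0.32, adjusted p = 0.016, and 0.055 without the untreated 144 h array), and Apoc1, an apolipoprotein (1.23 ± 0.34, adjusted p = 0.035, and a call lost without any of 5 of the 8 arrays, with adjusted p up to 0.1 without the untreated 36 h array).

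**Figure D2:**
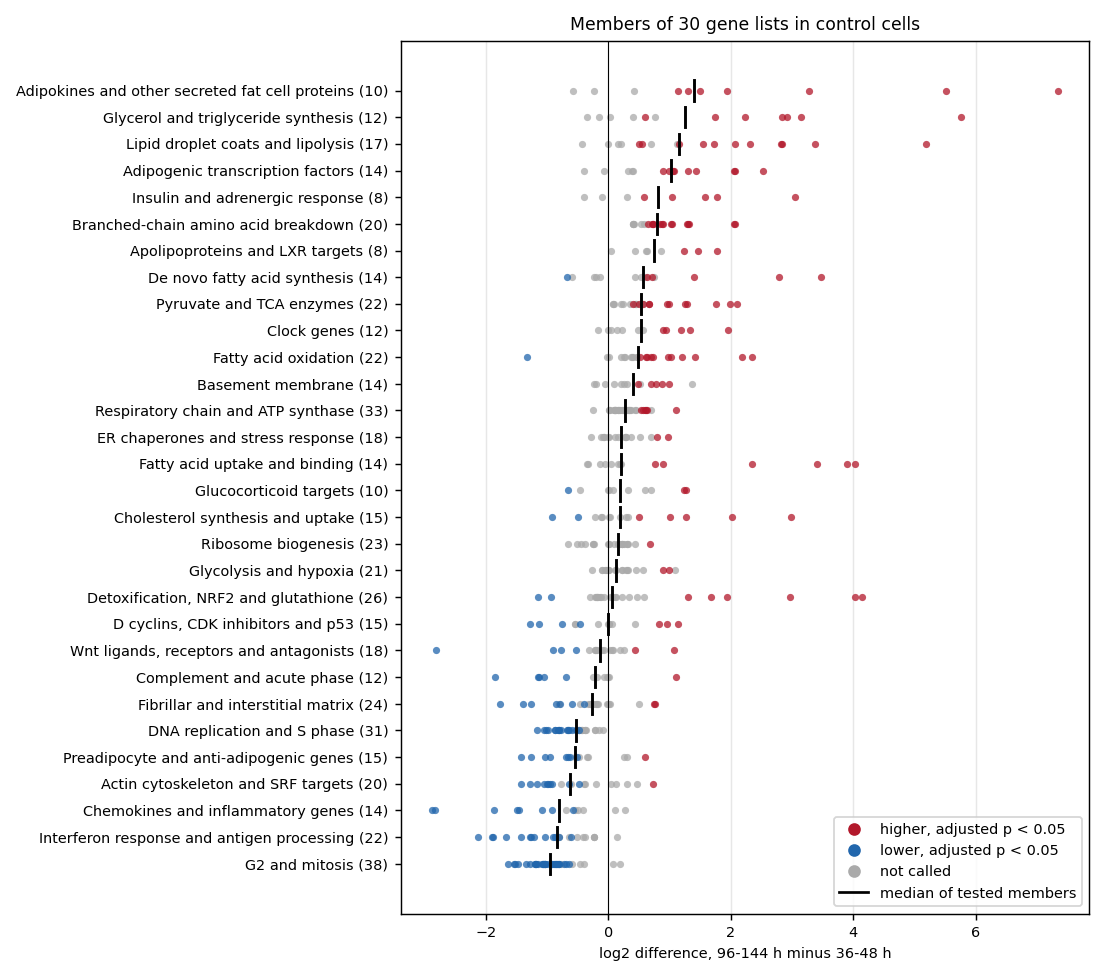
Log2 difference of each tested member of 30 gene lists, 96-144 h minus 36-48 h, in control cells; red points were called higher, blue lower and grey not called, black bars are medians, and the number of tested members is in parentheses. Adipokines have the highest median (1.39) and mitosis genes the lowest (-0.96).

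Most tested mitotic genes fell. Ube2c, the ubiquitin-conjugating enzyme of the anaphase-promoting complex, had levels of 12.16, 11.80, 12.52 and 11.81 at 96-144 h, against 14.12, 13.50, 13.95 and 13.25 at 36-48 h. Its difference was -1.63 ± 0.24, adjusted p = 0.0033. Ccnb2, a mitotic cyclin, had levels of 9.83, 9.63, 10.33 and 10.14 at 96-144 h, against 11.74, 10.90, 11.84 and 11.36 at 36-48 h, a difference of -1.48 ± 0.20, adjusted p = 0.0024. For both genes every array at 96-144 h was below every array at 36-48 h. Cenpa, the centromeric histone, differed by -1.54 ± 0.21, adjusted p = 0.0023 and Kif23, a kinesin of cytokinesis, by -1.52 ± 0.21, adjusted p = 0.0027. Of the list of G2 and mitosis genes, 0 of 38 tested members (40 listed) were called higher and 31 lower, with a median change of -0.96. Ube2c had the largest of these falls, 3.11-fold.

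Replication genes fell in part. Tk1, thymidine kinase, differed by -1.16 ± 0.20, adjusted p = 0.0064, Lig1, a DNA ligase, by -1.02 ± 0.20, adjusted p = 0.0094 and Uhrf1, which maintains DNA methylation, by -0.99 ± 0.19, adjusted p = 0.0087. Of the DNA replication and S phase list, 0 of 31 tested members (33 listed) were called higher and 16 lower, with a median change of -0.53. The count called lower was 7 with median centring, 8 in the fit of 36 arrays and 10 in that of 54. It ran from 4 to 14 when single arrays were left out, lowest without the untreated 144 h array, and was smaller by over 1.5 times without the untreated 36 h, DMSO 36 h, DMSO 48 h or DMSO 144 h array too. Top2a, the topoisomerase of dividing cells, differed by -0.86 ± 0.20, adjusted p = 0.02, and the adjusted p was 0.07 without the untreated 144 h array, 0.059 without the DMSO 36 h array, 0.059 without the DMSO 144 h array, 0.062 in the fit of 36 arrays and 0.058 in that of 54. Mcm5, of the replication list, was also called lower. Its call was lost without any of 5 of the 8 arrays, with adjusted p up to 0.083 without the untreated 144 h array. Mki67, of the mitosis list, was called lower too. The adjusted p of Mki67 was 0.089 with median centring, 0.15 with the mean of all probes, 0.22 in the fit of 36 arrays and 0.24 in that of 54. It was 0.07 without the untreated 144 h array and 0.053 without the DMSO 36 h array. Of the list of D cyclins, CDK inhibitors and p53 genes, 3 of 15 tested members (16 listed) were called higher and 4 lower, with a median change of -0.00. Cdkn2a, the gene of p16 and p19ARF, had levels of 7.29, 7.15, 8.18 and 7.91 at 96-144 h, against 8.32, 9.15, 8.60 and 9.02 at 36-48 h and differed by -1.14 ± 0.23, adjusted p = 0.012. The higher members were Btg2, an antiproliferative protein (1.13 ± 0.24, adjusted p = 0.013, but 0.052 with no arm block, 0.054 with arm as a random block, 0.24 in the fit of 36 arrays and 0.26 in that of 54), Cdkn2c, an inhibitor of cyclin D kinases (0.96 ± 0.21, adjusted p = 0.015, and 0.057 without the untreated 144 h array and 0.08 in the fit of 54 arrays), and Rb1, the retinoblastoma gene (0.83 ± 0.19, adjusted p = 0.017). The others called lower were Ccnd1, cyclin D1 (-1.29 ± 0.28, adjusted p = 0.016, and 0.052 without the untreated 36 h array and 0.057 without the untreated 144 h array), Cdkn2b (-0.75 ± 0.16, adjusted p = 0.014) and Ccng1, cyclin G1 (-0.46 ± 0.14, adjusted p = 0.048). The higher count was 1 without the untreated 144 h array and in the fit of 54 arrays, and the lower one ran from 1 to 4, smaller by over 1.5 times without the untreated 36 h or untreated 144 h array. Rb1, Cdkn2b and Ccng1 were named after their values were seen. Of the ribosome biogenesis list, 1 of 23 tested members (26 listed) were called higher and 0 lower, with a median change of 0.15, and that member was Rrp12 (0.68 ± 0.19, adjusted p = 0.038, and a call lost without any of 7 of the 8 arrays, with adjusted p up to 0.1 without the untreated 144 h array). The adjusted p of Rrp12 was 0.054 on values as deposited, 0.12 in the fit of 36 arrays and 0.14 in that of 54.

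Promoters of the mitosis list often hold CCAAT, the letters bound by NF-Y, and some hold TTTGAA, the cell cycle homology region. Sequences come from RefSeq promoters of build GRCm38.p6, matched by symbol, with 1 start per gene. CCAAT, on either strand in the 250 bases before the start, was found in 25 of 32 promoters of the mitosis list (78.1%), in 55.6% of the replication list and in 34.5% of 27025 promoters in all. TTTGAA was found in 12 of the 32 (37.5%), in 11.1% of the replication list and in 16.3% of all promoters. Among the 10278 tested genes with a promoter in the table, CCAAT was found in 35.9% and TTTGAA in 11.5%. The genes called lower as a whole had 37.6% and 13.3% (of 947), and those called higher 40.4% and 8.26% (of 920). The 2 mitotic promoters below, of genes that fell together, are shown over the 150 bases before the start, with CCAAT and TTTGAA on either strand in capitals. Ube2c holds both, while the TTTGAA match of Ccnb2 lies 167 bases before the start, outside the stretch shown. The promoter of Plin1 is set beside them as one of the rising genes, with the C/EBP letters TTGCNNAA in capitals. That motif stood in 8.04% of promoters of genes called higher, in 7.81% of those called lower, in 7.6% of genes tested and in 9.55% of all, with no CCAAT or TTTGAA in that of Plin1. The promoter of Gsta3, another of the rising genes, is not shown. Its 150 bases before the start held matches for NF-Y, the cell cycle homology region and C/EBP. Plin1 therefore does not stand for all rising genes. A match is a description of the letters only.
Ube2c, chr2:164769779-164769928, plus strand: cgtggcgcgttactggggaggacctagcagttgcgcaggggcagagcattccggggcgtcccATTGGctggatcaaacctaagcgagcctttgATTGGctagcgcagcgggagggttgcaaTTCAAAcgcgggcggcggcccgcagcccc
Ccnb2, chr9:70421555-70421704, minus strand: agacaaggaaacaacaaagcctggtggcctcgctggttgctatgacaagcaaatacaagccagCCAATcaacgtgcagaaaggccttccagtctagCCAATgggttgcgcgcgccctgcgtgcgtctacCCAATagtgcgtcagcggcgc
Plin1, chr7:79732777-79732926, minus strand: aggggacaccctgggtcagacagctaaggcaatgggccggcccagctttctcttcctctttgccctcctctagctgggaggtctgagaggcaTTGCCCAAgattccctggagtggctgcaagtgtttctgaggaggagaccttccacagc

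Inflammatory and interferon-linked genes supplied several of the 14 largest falls. Il6, the interleukin-6 gene, had levels of 7.0, 6.13, 6.97 and 6.80 at 96-144 h, against 9.38, 8.87, 10.58 and 9.58 at 36-48 h, a difference of -2.88 ± 0.28, adjusted p = 0.00063. Cxcl5, a chemokine that attracts neutrophils, had levels of 12.32, 11.25, 12.63 and 10.83 at 96-144 h, against 14.59, 14.38, 14.98 and 14.46 at 36-48 h, a difference of -2.84 ± 0.38, adjusted p = 0.0023. Neither gene overlapped between the windows, which was a condition for the 14 largest falls. Ccl2 and Cxcl1, further chemokines, differed by -1.88 ± 0.23, adjusted p = 0.0014 and -1.50 ± 0.15, adjusted p = 0.00064, and Il33, an alarmin, by -2.49 ± 0.15, adjusted p = 0.00019. Of the chemokine and inflammatory list, 0 of 14 tested members (15 listed) were called higher and 8 lower, with a median change of -0.81. In the fit of 54 arrays 4 were called lower, and the adjusted p of Cxcl1 was 0.1.

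Isg15, a ubiquitin-like modifier induced by interferon, had levels of 9.99, 9.22, 10.15 and 8.78 at 96-144 h, against 11.25, 11.62, 12.28 and 11.54 at 36-48 h, a difference of -2.14 ± 0.33, adjusted p = 0.0039. The guanylate-binding proteins Gbp2 and Gbp3 differed by -1.89 ± 0.23, adjusted p = 0.0014 and -1.90 ± 0.24, adjusted p = 0.0018. Ifit3 was also called lower, but its adjusted p was 0.12 in the fit of 54 arrays. Cmpk2, a nucleotide kinase induced by interferon, differed by -2.85 ± 0.41, adjusted p = 0.0029, and Ifi44 by -2.70 ± 0.52, adjusted p = 0.0091. Ifi44 was higher in DMSO than in untreated cells at all 4 times, with 9.16, 7.32, 10.03 and 7.94 at 96-144 h, against 10.61, 10.58, 12.51 and 11.56 at 36-48 h. Of the list for interferon response and antigen processing, 0 of 22 tested members (24 listed) were called higher and 13 lower, with a median change of -0.84. Of the complement and acute phase list, 1 of 12 tested members (14 listed) were called higher and 5 lower, with a median change of -0.22; its lower count was 3 with no arm block or arm as a random block and ran from 3 to 5 when single arrays were left out, and was smaller by over 1.5 times without the untreated 36 h, untreated 48 h, untreated 144 h, DMSO 48 h or DMSO 144 h array. Serping1, the C1 inhibitor, differed by -1.85 ± 0.14, adjusted p = 0.00024 and Cp, ceruloplasmin, by -1.16 ± 0.24, adjusted p = 0.012, while Orm1, an acute phase protein, differed by 1.10 ± 0.18, adjusted p = 0.0054. The others called lower were the complement proteases C1s1 (-1.13 ± 0.32, adjusted p = 0.043, and a call lost without any of 6 of the 8 arrays, with adjusted p up to 0.13 without the untreated 144 h array) and C1ra (-1.05 ± 0.27, adjusted p = 0.027) and Hp, haptoglobin (-0.70 ± 0.14, adjusted p = 0.0099), of which C1ra and Hp were named after their values were seen.

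Matrix genes split by type. Mmp3, a matrix metalloproteinase, had levels of 9.37, 8.32, 9.04 and 7.88 at 96-144 h, against 11.53, 11.78, 11.66 and 11.27 at 36-48 h, a difference of -2.91 ± 0.29, adjusted p = 0.00066. Fbn1, fibrillin of elastic microfibrils, differed by -1.78 ± 0.24, adjusted p = 0.0023, and Dcn, decorin, by -1.39 ± 0.18, adjusted p = 0.0021. Tnc and Col8a1 were also called lower. Their adjusted p was 0.13 and 0.31 in the fit of 36 arrays, and 0.17 and 0.46 in that of 54. Col1a1, the main fibrillar collagen, had levels of 12.66, 12.40, 12.17 and 11.80 at 96-144 h, against 13.01, 13.44, 12.93 and 12.84 at 36-48 h, a difference of -0.80 ± 0.15, adjusted p = 0.0097. P4ha3, a collagen prolyl hydroxylase, differed by -2.34 ± 0.18, adjusted p = 0.00028 and Spon2, a secreted matrix protein, by -2.67 ± 0.40, adjusted p = 0.0034. Of the fibrillar and interstitial matrix list, 2 of 24 tested members (27 listed) were called higher and 7 lower (4 in the fit of 36 arrays and 3 in that of 54), with a median change of -0.27; the members called higher, named after their values were seen, were Col6a3 (0.74 ± 0.14, adjusted p = 0.0074) and Col5a3 (0.77 ± 0.21, adjusted p = 0.037), and 1 was called on values as deposited, with arm as a random block, without genes saturated on any array, or without the untreated 36 h, untreated 48 h, untreated 144 h, DMSO 36 h or DMSO 144 h array. Of the basement membrane list, 5 of 14 tested members (14 listed) were called higher and 0 lower, with a median change of 0.39, with 3 called at the lowest when single arrays were left out and a count smaller by over 1.5 times without the untreated 48, 96 or 144 h array. There Lamc1 and Lamb1, laminin chains, rose by 0.98 ± 0.14 (1.98-fold, adjusted p = 0.0031) and 0.69 ± 0.14 (1.61-fold, adjusted p = 0.011), and Col4a1, a type IV collagen, by 0.77 ± 0.12 (1.71-fold, adjusted p = 0.0034). The others were Lama4, a laminin chain (0.87 ± 0.21, adjusted p = 0.022, and a call lost without any of 5 of the 8 arrays, with adjusted p up to 0.076 without the untreated 144 h array), and Col4a2 (0.49 ± 0.13, adjusted p = 0.032, named after its value was seen).

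Part of the actin and precursor genes fell. Acta2, smooth muscle actin, had levels of 12.43, 11.31, 12.10 and 11.05 at 96-144 h, against 12.92, 13.44, 12.88 and 13.33 at 36-48 h, a difference of -1.42 ± 0.30, adjusted p = 0.014. The gene had 4 probes, whose differences ran from -1.42 to 0.37. Myl9, a myosin light chain, differed by -1.28 ± 0.17, adjusted p = 0.0023, Tagln2 by -1.16 ± 0.18, adjusted p = 0.0036 and Cnn2, a calponin, by -1.05 ± 0.21, adjusted p = 0.011. Of the actin cytoskeleton and SRF target list, 1 of 20 tested members (23 listed) were called higher and 10 lower, with a median change of -0.63; the member called higher was Ccn1, a matricellular protein (0.73 ± 0.17, adjusted p = 0.02, named after its value was seen), whose call was lost in the fits of 36 and 54 arrays and without the untreated 36 h, untreated 144 h or DMSO 144 h array. With median centring 2 were called higher.

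Gata2, a factor that holds cells in the preadipocyte state, differed by -1.42 ± 0.22, adjusted p = 0.0037. Pdgfra, a receptor of preadipocytes, had levels of 13.28, 12.78, 13.34 and 12.76 at 96-144 h, against 14.20, 13.93, 13.83 and 14.04 at 36-48 h, a difference of -0.96 ± 0.18, adjusted p = 0.0081, but 0.067 in the fit of 36 arrays and 0.12 in that of 54. Pdgfrb was also called lower, but not without the untreated 36 h, untreated 144 h or DMSO 36 h array. Dlk1, which restrains adipogenesis, stood at 15.55, 15.11, 15.52 and 14.93 at 96-144 h, against 15.67, 15.84, 15.75 and 15.78 at 36-48 h. The windows did not overlap, but its difference of -0.48 ± 0.17, adjusted p = 0.078 was not called. Its levels at 36-48 h lay close to saturation, which it reached on 2 of 12 control arrays at 0-3 h. The fall may therefore be understated. Ly6a, which encodes the surface antigen Sca-1, was saturated on none of the arrays at 96-144 h and on 3 of 4 at 36-48 h, and its measured difference was -1.26 ± 0.19, adjusted p = 0.0037. Of the preadipocyte and anti-adipogenic list, 1 of 15 tested members (15 listed) were called higher and 8 lower, with a median change of -0.54; the lower count was 5 with median centring and ran from 3 to 10 when single arrays were left out, lowest without the untreated 144 h array. The member called higher, Zfp423 (0.60 ± 0.17, adjusted p = 0.045, named after its value was seen), was not called with median centring, on values as deposited or in the fits of 36 or 54 arrays, and among the fits without a single array it was called only without the DMSO 36 h or DMSO 96 h array. Sfrp2, a secreted Wnt antagonist, had levels of 7.74, 7.31, 7.70 and 6.88 at 96-144 h, against 10.94, 10.31, 10.38 and 9.27 at 36-48 h, a difference of -2.82 ± 0.30, adjusted p = 0.00081. Of the Wnt list, 2 of 18 tested members (20 listed) were called higher and 4 lower, with a median change of -0.14, and 1 was called lower without the untreated 144 h array. The higher count was near the 8.79% of all genes tested. Those lower besides Sfrp2 were the receptors Fzd1 (-0.91 ± 0.19, adjusted p = 0.014, and 0.054 without the untreated 144 h array) and Fzd2 (-0.78 ± 0.16, adjusted p = 0.012, and 0.05 without the untreated 144 h array) and the ligand Wnt6 (-0.53 ± 0.13, adjusted p = 0.024). Tcf7l2, a Wnt effector, differed by 1.08 ± 0.17, adjusted p = 0.004, and 0.27 on its second probe, and Lef1, another, by 0.43 ± 0.12, adjusted p = 0.039; 1 of this pair was called with median centring, on values as deposited, in the fits of 36 or 54 arrays, or without any one array other than untreated 36 h. Wnt6 and Lef1 were named after their values were seen.

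The remaining large falls had varied roles. Ptn, the growth factor pleiotrophin, had levels of 13.33, 11.97, 13.37 and 11.20 at 96-144 h, against 14.93, 15.29, 15.02 and 14.58 at 36-48 h, a difference of -2.49 ± 0.45, adjusted p = 0.0073. S1pr1, a sphingosine-1-phosphate receptor, differed by -2.46 ± 0.27, adjusted p = 0.001 and Kif26b, a kinesin, by -2.72 ± 0.35, adjusted p = 0.0019. F830045P16Rik had the largest fall, -3.13 ± 0.28, adjusted p = 0.00044. Some clock genes rose. Nr1d1, the repressor REV-ERBα, had levels of 9.61, 10.64, 9.38 and 10.63 at 96-144 h, against 7.68, 8.43, 7.97 and 8.34 at 36-48 h, a difference of 1.96 ± 0.33 (3.9-fold, adjusted p = 0.0051), and Tef and Bhlhe40, further clock-linked factors, rose by 1.18 ± 0.20 (2.27-fold, adjusted p = 0.0061) and 0.94 ± 0.13 (1.92-fold, adjusted p = 0.0029). Of the clock genes, 5 of 12 tested members (15 listed) were called higher and 0 lower, with a median change of 0.53; the others were Per3, a repressor (1.33 ± 0.39, adjusted p = 0.047, and a call lost without any of 6 of the 8 arrays, with adjusted p up to 0.14 without the untreated 144 h array), and Clock itself (0.89 ± 0.14, adjusted p = 0.0045, named after its value was seen). The sampling hour of day is not stated in the labels. Of the glucocorticoid targets, 2 of 10 tested members (11 listed) were called higher and 1 lower, with a median change of 0.20: Fkbp5, a chaperone partner of the receptor, rose by 1.24 ± 0.17 (2.36-fold, adjusted p = 0.0023, but 0.073 in the fit of 54 arrays) and Pdk4, a kinase that inhibits pyruvate dehydrogenase, by 1.26 ± 0.26 (2.4-fold, adjusted p = 0.012). Sgk1, a serine kinase, was the lower one (-0.66 ± 0.14, adjusted p = 0.013, but 0.13 with median centring, 0.16 with the mean of all probes, 0.47 in the fit of 36 arrays and 0.49 in that of 54). Of the ER chaperone and stress list, 2 of 18 tested members (19 listed) were called higher and 0 lower, with a median change of 0.21, and these were Xbp1, a factor of the unfolded protein response (0.98 ± 0.23, adjusted p = 0.021, and a call lost without any of 4 of the 8 arrays, with adjusted p up to 0.075 without the untreated 144 h array), and Dnajb9, a chaperone partner (0.80 ± 0.18, adjusted p = 0.017, and 0.057 without the untreated 144 h array and 0.053 without the DMSO 144 h array). This count was near the 8.79% of all genes tested that were called higher.

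Marker genes were checked against the labelled cell type. All 7 tested adipocyte markers were called higher, and their summed intensity ran from 100683 to 193382 at 96-144 h and from 5335 to 13850 at 36-48 h. Of the 7 preadipocyte and fibroblast markers 6 were called lower, with sums of 70352 to 116362 at 96-144 h and 162261 to 172983 at 36-48 h. Brown fat markers were largely dim: 5 of 10 were tested, Ucp1 and Prdm16 were among those too dim, 0 were called higher by limma (1 at an unadjusted p under 0.05, Cox7a1 at 0.36 ± 0.15, unadjusted p = 0.043), and Dio2, a deiodinase, was called lower (-2.22 ± 0.30, adjusted p = 0.0023). Their sums were 969 to 1503 at 96-144 h and 1245 to 1918 at 36-48 h, while the median change of the 5 tested members was 0.36. Of 7 tested macrophage markers 3 were called lower, Cd14 (-2.20 ± 0.17, adjusted p = 0.00028), Itgam (-0.94 ± 0.18, adjusted p = 0.0092) and Lyz2 (-0.86 ± 0.16, adjusted p = 0.0072), with sums of 1750 to 2177 at 96-144 h and 3909 to 5913 at 36-48 h, while Adgre1 and Ptprc were too dim to be tested. Epithelial keratins were called higher, Krt8 at 3.29 ± 0.57, adjusted p = 0.0062 and Krt18 at 3.11 ± 0.40, adjusted p = 0.0019, with Epcam and Cdh1 too dim to be tested and sums of 1358 to 3438 at 96-144 h and 883 to 1282 at 36-48 h. Krt8 averaged 9.70 at 96-144 h and 6.41 at 36-48 h. Endothelial and skeletal muscle lists had no member called by limma (3 and 5 tested, 0 at an unadjusted p under 0.05), and of 7 bone and cartilage markers Alpl was called higher (0.79 ± 0.21, adjusted p = 0.035). The genes named singly for these other cell types were picked after their values were seen, and the part that other cell types had in the falls and rises above was not tested.

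Times within a window were also compared, and the number of calls depended on the scaling. For genes that differ between 144 h and 96 h in control cells limma called 0 (0%), with 1135 at an unadjusted p under 0.05, but 108 with median centring. For genes that differ between 48 h and 36 h in control cells it called 0 (0%), with 615 at an unadjusted p under 0.05, but 48 with median centring. Called rises were higher at 144 h than at 96 h in 979 of 1124 genes, with a median difference of 0.28, and higher at 48 h than at 36 h in 750, with a median of 0.10. Called falls were lower at 144 h than at 96 h in 1037 of 1164 genes (median -0.29) and lower at 48 h than at 36 h in 821 (median -0.12). The genes were chosen on the same arrays, so these counts are a description. Depp1 (2.71 ± 0.24, adjusted p = 0.085), Acsm3 (2.53 ± 0.22, 0.085) and Ghrh (1.90 ± 0.19, 0.12) had the largest 144 minus 96 h differences among the 6 genes with the smallest p, and Aspn (-1.64 ± 0.18, 0.12) and Igfbp6 (-1.58 ± 0.18, 0.12) were at the other end. The 48 minus 36 h difference was 2.13 ± 0.18 for Cfd (adjusted p = 0.11), 2.44 ± 0.33 for Adipoq (0.35), 1.64 ± 0.21 for Cidec (0.35) and 1.41 ± 0.18 for Agt (0.35).

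Over the longer course, the windows stood at different points for different genes. Mean levels of Cfd in control cells at 0-3, 5-24, 36-48, 96-144 and 192-288 h were 4.58, 4.83, 7.93, 15.28 and 15.96. Cfd was saturated on 5 of the 6 control arrays at 192-288 h and on none at the earlier times, so the last of these levels is a lower bound. Gpd1 gave 7.09, 7.18, 7.47, 13.23 and 14.80, so most of its increase lay after 48 h, while Pnpla2 gave 10.16, 10.10, 12.03, 14.10 and 13.76. Cyp51 had 12.37, 11.60, 9.96, 12.94 and 10.23, and was thus lowest at 36-48 h. Isg15 had 13.98, 12.90, 11.67, 9.54 and 13.30, with its lowest level at 96-144 h, and Il6 12.50, 11.22, 9.61, 6.73 and 8.06. These windows share arrays with the comparison above, and the other steps are given as levels only. The mean of the G2 and mitosis list was 11.77 in DMSO and 11.88 in untreated cells at 24 h, and 8.45 in DMSO and 8.26 in untreated cells at 192 h, with 96-144 h between them. The mean of the interferon list at 36 h was 10.75 in DMSO and 10.24 in untreated cells, and at 144 h it was 9.26 in DMSO and 9.24 in untreated cells. At 192 h it was 11.95 in DMSO and 10.09 in untreated cells.

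**Figure D3:**
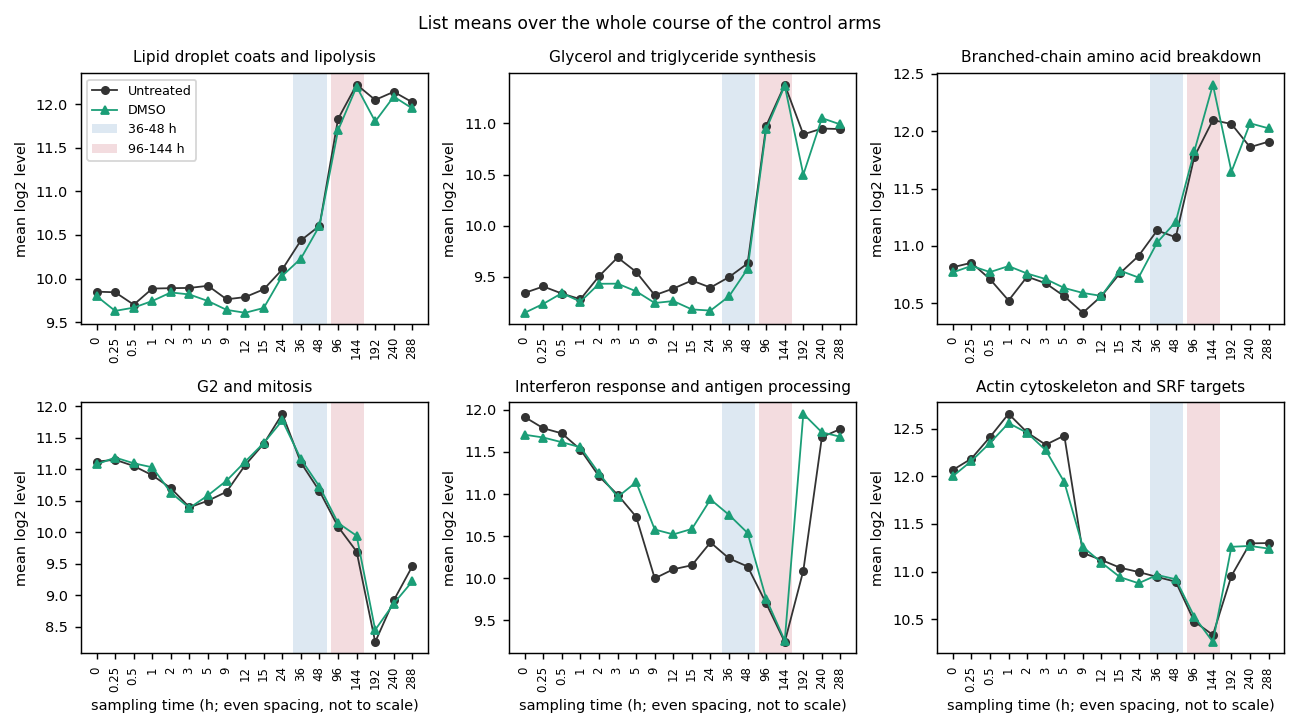
Mean level of 6 gene lists over 18 sampling times in untreated (black) and DMSO (green) cells, 1 array per point, with 36-48 h shaded blue and 96-144 h shaded red; times are evenly spaced, not to scale. Droplet, triglyceride and branched-chain lists step up between the shaded windows, while mitosis, interferon and actin lists are lower in the red window than in the blue one in both arms.

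The control arms were tested against each other. Across genes, which are not independent replicates, the changes of DMSO and untreated cells correlated at r = 0.696 (Spearman 0.567). By limma's interaction, 1 gene was called (0.00782%) and 589 had an unadjusted p under 0.05. It was Clns1a, which encodes the splicing assembly factor pICln, with levels of 12.99, 12.75, 12.97 and 12.67 at 96-144 h, against 13.57, 12.98, 5.33 and 4.51 at 36-48 h. The arrays at 36 and 48 h in DMSO cells were low and the other 6 were between 12.67 and 13.57. Low values were not limited to these times: the lowest control array at 5-24 h stood at 4.69, and at 0-3 h at 12.63. DMSO cells changed by 7.90 and untreated cells by -0.40, a difference of 8.31 (adjusted p = 0.00056). A second Clns1a probe changed by 0.02 over both arms. With 4 residual degrees of freedom, a gene that misses this test is not shown to change alike in the arms.

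Most genes called in control cells differed in the same direction with prieurianin over the same hours. Between 96-144 h and 36-48 h, with 1 array a time, limma called 5 genes in prieurianin cells (0.0391%). The 4 higher ones were Gpd1 (3.71), Ccl6, a chemokine (3.39), Acsl1 (2.88) and Mylk, a myosin light chain kinase (1.72), and Spink10 was lower (-2.02), each with an adjusted p of 0.041; Ccl6, Mylk and Spink10 were named after their values were seen. The genes called higher in control cells had a median change of 0.42 with prieurianin and 0.82 in control cells, and those called lower had -0.45 and -0.80. Of the 1124 genes called higher 1032 had a positive change with prieurianin, and of the 1164 called lower 1046 had a negative one. The share of all genes tested with the same direction was not computed. Across all of them, which are not independent replicates, the changes of prieurianin and control cells correlated at r = 0.658. The genes were chosen on the control arrays, so their control medians are larger by selection.

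The difference of the changes, prieurianin minus control, was called for 2 genes (0.0156%), and 936 had an unadjusted p under 0.05. G0s2, the lipase inhibitor, changed by 1.13 with prieurianin and by 3.37 in control cells, a difference of -2.25 ± 0.23 (adjusted p = 0.01). Its levels with prieurianin were 8.27 and 8.41 at 96 and 144 h, against 7.19 and 7.24 at 36 and 48 h. The other was Clns1a (-4.00, adjusted p = 0.005), where the low DMSO arrays enter the control change and prieurianin cells changed by -0.25. Next by p were Mgll (-2.11), Gpat3 (-1.69), Myl9 (1.73) and Htra1, a secreted serine protease (1.62), each with an adjusted p of 0.15.

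List by list, the median change with prieurianin stood beside that of control cells as follows. Mitosis genes had -1.09 with prieurianin and -0.96 in control cells, and secreted fat cell proteins 1.31 and 1.39. Actin genes had 0.02 and -0.63, preadipocyte genes -0.17 and -0.54, triglyceride genes 0.65 and 1.25, and fatty acid synthesis genes 0.09 and 0.56. These medians carry no test. Cfd changed by 7.05 with prieurianin and by 7.35 in control cells, and Adipoq by 5.64 and 5.51. Gpd1 changed by 3.71 and 5.76, and Fasn by 0.18 and 1.39. A difference that misses the threshold does not show that prieurianin and control cells changed alike.

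**Figure D4:**
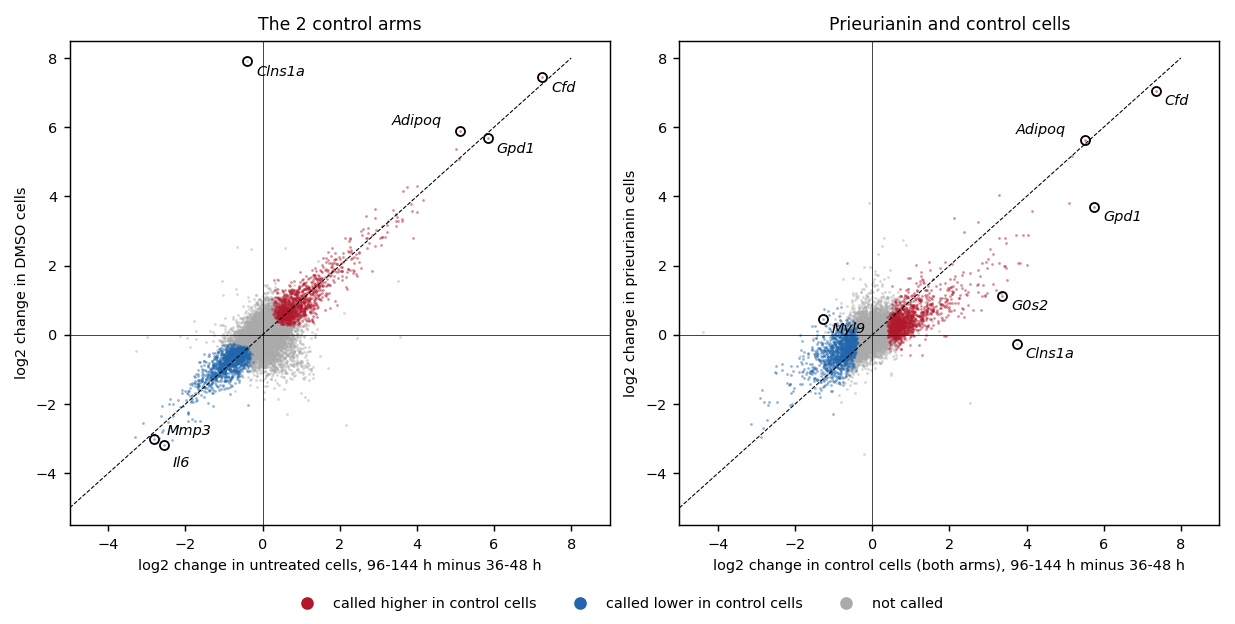
Log2 change, 96-144 h minus 36-48 h, of each tested gene in DMSO against untreated cells (left, untreated on the x axis) and in prieurianin against control cells (right); red and blue mark genes called higher and lower in control cells, and the dashed line is equality. Clns1a stands off the line in both panels (changes of 7.90 in DMSO and -0.40 in untreated cells), and G0s2 in the right one.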

How the data were processed

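RNA of 3T3-L1 cells was measured on single-colour Cy5 arrays, 1 array per arm and time. The deposited values are linear probe intensities, a unit read from the values themselves; background correction, scaling and scanner are not given in the sources used here, and no normalisation was evident. Every deposited column was mapped to a sample by its label (0 left out). Intensities of all 54 arrays were quantile normalised, floored at 0 and taken as log2(value + 16). Probes within 50 units of an array's highest value were treated as saturated. Of 29922 probes, 21020 carried a gene symbol; symbols were updated through a RefSeq table of assembly GRCm38.p6 (3410 updated, 52 kept as annotated). The brightest probe stood for each of 16637 genes, and the 12792 with a mean above 6.07 (the lower quartile) were tested.

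Fits used limma 3.58.1 in R 4.3.3 with Benjamini-Hochberg adjustment over all genes tested. The main fit had arm as a block (5 residual degrees of freedom). Interactions tested the arms (4) and prieurianin against control cells (12 arrays, 6), and time as a factor tested 144 against 96 h and 48 against 36 h (3). The fits were checked on simulated data. Named genes were the 14 largest rises and 14 largest falls among called genes with no overlap between windows, the same direction in both arms, a mean of at least 8 in the brighter window and a probe not saturated throughout; a panel of fat cell, precursor and cell cycle genes; up to 4 called members of each list; and the 6 smallest p of each other test. Members and lists were chosen with earlier results of these data known. Retn and Ccnb1, of the panel, were not analysed here. Alternatives changed normalisation, pseudocount, filter, block, samples, probe choice, saturation and moderation.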

Additional observations from a re-analysis of the deposited data

Results flagged for a closer look

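A single array stood apart from the other 3 of its window for 4 named genes, judged by the gap to its nearest neighbour as a share of the window's range. At 96-144 h this was Sgk1, with a share of 0.911, where the DMSO 96 h array stood at 10.38 and the next at 10.82. At 36-48 h it was Ly6a, at 0.999 (DMSO 48 h at 15.96, below 3 saturated arrays), G0s2, at 0.9 (untreated 48 h at 7.76, the next at 7.40), and Mrap, at 0.882 (untreated 36 h at 5.89, the next at 5.59). Chance flags about 1 in 20 groups, and 4 of 272 were flagged.

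Changes that differed between arms by the test of the difference itself were those of Clns1a, with a DMSO minus untreated difference of 8.31 and a prieurianin minus control difference of -4.00, and of G0s2, with a prieurianin minus control difference of -2.25. The cause was not tested.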

How the results depend on the processing

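No called gene changed sign under another scaling, pseudocount, filter, block or set of samples; with the mean of all probes of a gene, 3 did. Cebpb, never called, was at 0.038 with median centring. Main counts of 1124 higher and 1164 lower became 1401 and 738 with median centring, 227 and 121 in the untreated arm alone, 22 and 10 in the DMSO arm alone, 232 and 163 without 36 h, 507 and 497 without 48 h, and 282 and 190 without 144 h. Leaving out single arrays gave 543 to 1174 higher and 508 to 1142 lower. Counts of genes that differ between 144 h and 96 h in control cells were 108 with median centring, 16 with a pseudocount of 64 and 2 without genes saturated on any array, against 0. Between 48 and 36 h, median centring gave 48, against 0. The prieurianin difference gave 1 call on values as deposited, against 2, and the arm difference 2 without the filter, against 1. The causes were not tested. Of 136 named genes, 63 lost their call in the untreated arm alone and 117 in the DMSO arm alone. Saturation limits 14 called genes, and dim genes have understated changes. No paired analysis was possible because the labels carry no replicate numbers; arm was the block in the main fit, and without it 1025 genes were higher and 1061 lower.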

Other observations

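Of 8902 probes with no gene symbol here, 4609 were bright enough to be tested in the same way, and 157 were called higher and 136 lower at 96-144 h than at 36-48 h (6.36% in both directions together). The probe mMR031210 averaged 10.07 at 96-144 h and 6.63 at 36-48 h, a difference of 3.44, and mMR031038 averaged 13.52 and 10.10, a difference of 3.42. The probe mMC008412 averaged 7.93 at 96-144 h and 11.02 at 36-48 h (-3.09), and mMR029769 averaged 8.11 and 10.42 (-2.31).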
